A study of Macaca mulatta with 449 samples.

Results

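RHAG, FFAR4, TESPA1, FREM3, SPINK5 and GSG1L2 were examined as a group of 6 genes chosen, by symbol, for low counts in the occipital lobe of the rhesus macaque brain. They were 6 of the 30807 genes in the deposited count table, and each symbol matched 1 Ensembl identifier: ENSMMUG00000012079 for RHAG, ENSMMUG00000014710 for FFAR4, ENSMMUG00000016203 for TESPA1, ENSMMUG00000003319 for FREM3, ENSMMUG00000017900 for SPINK5 and ENSMMUG00000018089 for GSG1L2. The table held bulk RNA-seq samples, 1 from each of 51 sub-regions in each of 8 healthy macaques, and the labels gave no genotype or treatment. The 4 young animals were 3.2 to 5 years old (Rhesus 4, 7, 8 and 10) and the 4 mid-aged animals 9.8 to 10 years old (Rhesus 2, 3, 6 and 11), with both sexes in each stage. The cortex was covered by 31 sub-regions: 10 frontal, 9 parietal, 3 occipital, 4 temporal and 5 limbic. The 3 occipital sub-regions were the anterior and posterior parts of the superior occipital gyrus (aSOG and pSOG) and the inferior occipital gyrus (IOG). The other 20 sub-regions formed 15 region groups outside these lobes.

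The occipital lobe is the site of the primary visual cortex, whose layering differs from that of association cortex, and gene expression across the primate cortex is known to follow gradients between sensory and association areas. RHAG encodes a membrane protein of red blood cells that accompanies the Rh antigens and conducts ammonia. FFAR4, also called GPR120, is a G-protein-coupled receptor for long-chain fatty acids. TESPA1 takes part in T-cell receptor signalling during thymocyte development and binds inositol trisphosphate receptors. FREM3 is an extracellular matrix protein of the FRAS1-related family. SPINK5 encodes LEKTI, a serine protease inhibitor that restrains kallikreins in the epidermis. GSG1L2 belongs to the claudin-like GSG1 family, whose relative GSG1L is an auxiliary subunit of AMPA-type glutamate receptors.

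Library totals lay between 7784678 and 31083490 counts with a median of 10698602, and the 24 occipital libraries lay between 8694421 and 17527846. Levels are given as CPM, the counts per gene relative to the TMM-scaled library size; they were not scaled by gene length and are compared between regions, never between genes. The hypothalamus (HTHA) library of Rhesus 6 stood apart from the other 7 of its kind, with 471.6 CPM of the excitatory neuron gene SLC17A7 against at most 4.94. It also held 96.6 CPM of TESPA1 against at most 0.506. Values for this region are therefore given without it as well.

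Of the 6 genes, 5 were low in the occipital lobe and 1, TESPA1, was not. The genes were chosen from this contrast, so its values are a description and carry no test. In the fit across all genes, 9837 of 17478 genes (56.3%) differed between the occipital lobe and the mean of the other lobes at an FDR below 0.05. Of all genes tested, 26.4% were lower and 29.9% higher. Because the tissue was bulk, fewer cells of a type and less RNA per cell cannot be told apart in any of these values.

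RHAG averaged 0.0467 ± 0.0539 CPM in the occipital lobe (SD, n = 8 animals; each animal's level is the mean over its sub-regions). Its lowest, median and highest occipital levels were 0, 0.0316 and 0.122 CPM, against 1.14, 1.92 and 3.40 CPM in the other cortex. The gene gave 12 counts over all 24 occipital libraries and none in 4 of the animals, so its occipital level lay close to the 0.0113 CPM that 3 counts over the whole lobe would give. Its pooled level in the other cortex was 48.8-fold higher (95% interval 27.9 to 94.5, counting error only).

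FFAR4 averaged 0.415 ± 0.964 CPM in the occipital lobe, with lowest, median and highest levels of 0, 0.105 and 2.80 CPM, against 6.81, 8.91 and 12.5 CPM in the other cortex. The highest value belonged to Rhesus 11, which contributed 85 of the 101 occipital counts. That animal was high in each of its 3 occipital samples, at 4.06 CPM in aSOG, 2.18 in pSOG and 2.15 in IOG. Without Rhesus 11 the occipital mean was 0.0750 ± 0.0554 CPM (n = 7), a comparison added after the data were seen. With all animals the pooled fold was 24.7 (20.3 to 30.3).

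FREM3 averaged 3.36 ± 3.00 CPM in the occipital lobe, ranging from 0.435 over a median of 2.76 to 9.96 CPM, while the other cortex ranged from 46.3 over a median of 52.8 to 70.0 CPM. Rhesus 11 was again the highest occipital animal, and without it the mean was 2.42 ± 1.48 CPM. The pooled fold was 16.9 (15.8 to 18.1).

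SPINK5 averaged 0.173 ± 0.126 CPM in the occipital lobe (lowest 0.0237, median 0.131, highest 0.361) and 2.69 ± 1.5 CPM in the other cortex (1.22, 2.07 and 5.34), a pooled fold of 15.2 (11.4 to 20.7). GSG1L2 had the smallest difference of the 5 genes, with 0.302 ± 0.240 CPM in the occipital lobe (0, 0.261 and 0.737) and 1.90 ± 1.16 CPM in the other cortex (0.424, 1.58 and 3.74), a pooled fold of 6.52 (5.25 to 8.20). For RHAG, FFAR4, FREM3 and SPINK5 the 8 occipital levels did not overlap those of any other lobe. These genes were chosen from this contrast, in which 56.3% of all genes differed. The share of all genes without such overlap was not computed. GSG1L2 overlapped the frontal, parietal and limbic lobes between animals, although within each of the 8 animals its occipital level was below that of every other lobe.

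TESPA1 averaged 192 ± 55.4 CPM in the occipital lobe, with lowest, median and highest levels of 106, 185 and 267 CPM. The other cortex stood at 193 ± 32 CPM, with 151, 193 and 235 CPM. The ranges overlapped, and the occipital level was 70.2% to 150% of the other cortex within an animal, lower in 6 of 8. Ordered by fitted difference, TESPA1 stood at position 8933 of 17478 genes from the lowest, where RHAG, FFAR4, FREM3, SPINK5 and GSG1L2 stood at positions 5, 7, 17, 28 and 82. These positions come from the contrast that chose the genes, so the low positions of the 5 genes are no test of occipital depletion. TESPA1 was chosen as low in the occipital lobe too, but its levels there overlapped those of the other cortex.

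**Figure D1:**
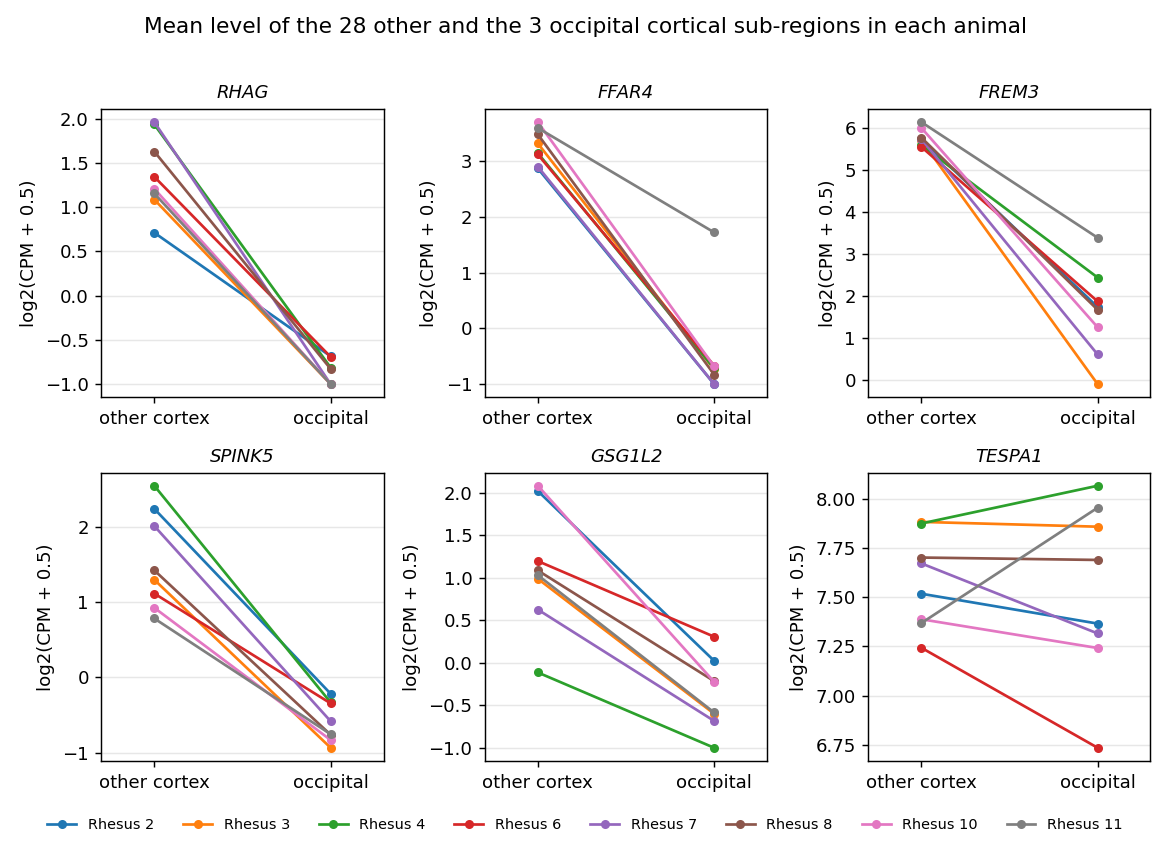
Level of each gene in the other cortex and in the occipital lobe, 1 line per animal (8 animals), on a log2(CPM + 0.5) axis. For RHAG, FFAR4, FREM3, SPINK5 and GSG1L2 every line falls from left to right, whereas the TESPA1 lines run in both directions, 6 down and 2 up.

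Across the 31 cortical sub-regions the genes other than TESPA1 were low in a block of posterior sub-regions wider than the occipital lobe, and most of them were high at the temporal pole, the insula or parts of frontal cortex. The highest RHAG level was in the temporal polar gyrus (TPG), at 6.66 ± 2.60 CPM with a range of 2.87 to 10.52 CPM. FREM3 was also highest there, at 119 ± 23.2 CPM, followed by the ventromedial prefrontal cortex (vmPFC) at 109 CPM. FFAR4 was highest in vmPFC at 21.2 ± 4.10 CPM and in the anterior superior frontal gyrus (ASFG) at 19.7 CPM. SPINK5 was highest in the medial orbital gyrus at 5.45 ± 4.45 CPM, and GSG1L2 in the insula (INS) at 4.46 ± 2.12 CPM.

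TESPA1 ran otherwise. It was highest in the superior and inferior precentral gyri (SPrCG and IPrCG), at 259 ± 45.8 and 240 ± 32.9 CPM, and lowest in TPG, the anterior cingulate gyrus (ACG) and INS, at 103 ± 18.3, 129 ± 35.6 and 130 ± 20.7 CPM. GSG1L2 had the opposite standing in the precentral gyri, with 0.451 ± 0.554 CPM in SPrCG and 0.363 ± 0.511 CPM in IPrCG, levels next to its occipital ones. In the order of the 31 means, no pair of neighbours differed by more than its spread (SD) for RHAG, FFAR4, SPINK5 or GSG1L2, and only 1 pair did for TESPA1 and for FREM3. A difference below the SD over animals is no test of the order, so no order of close sub-regions is read from these means.

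**Figure D2:**
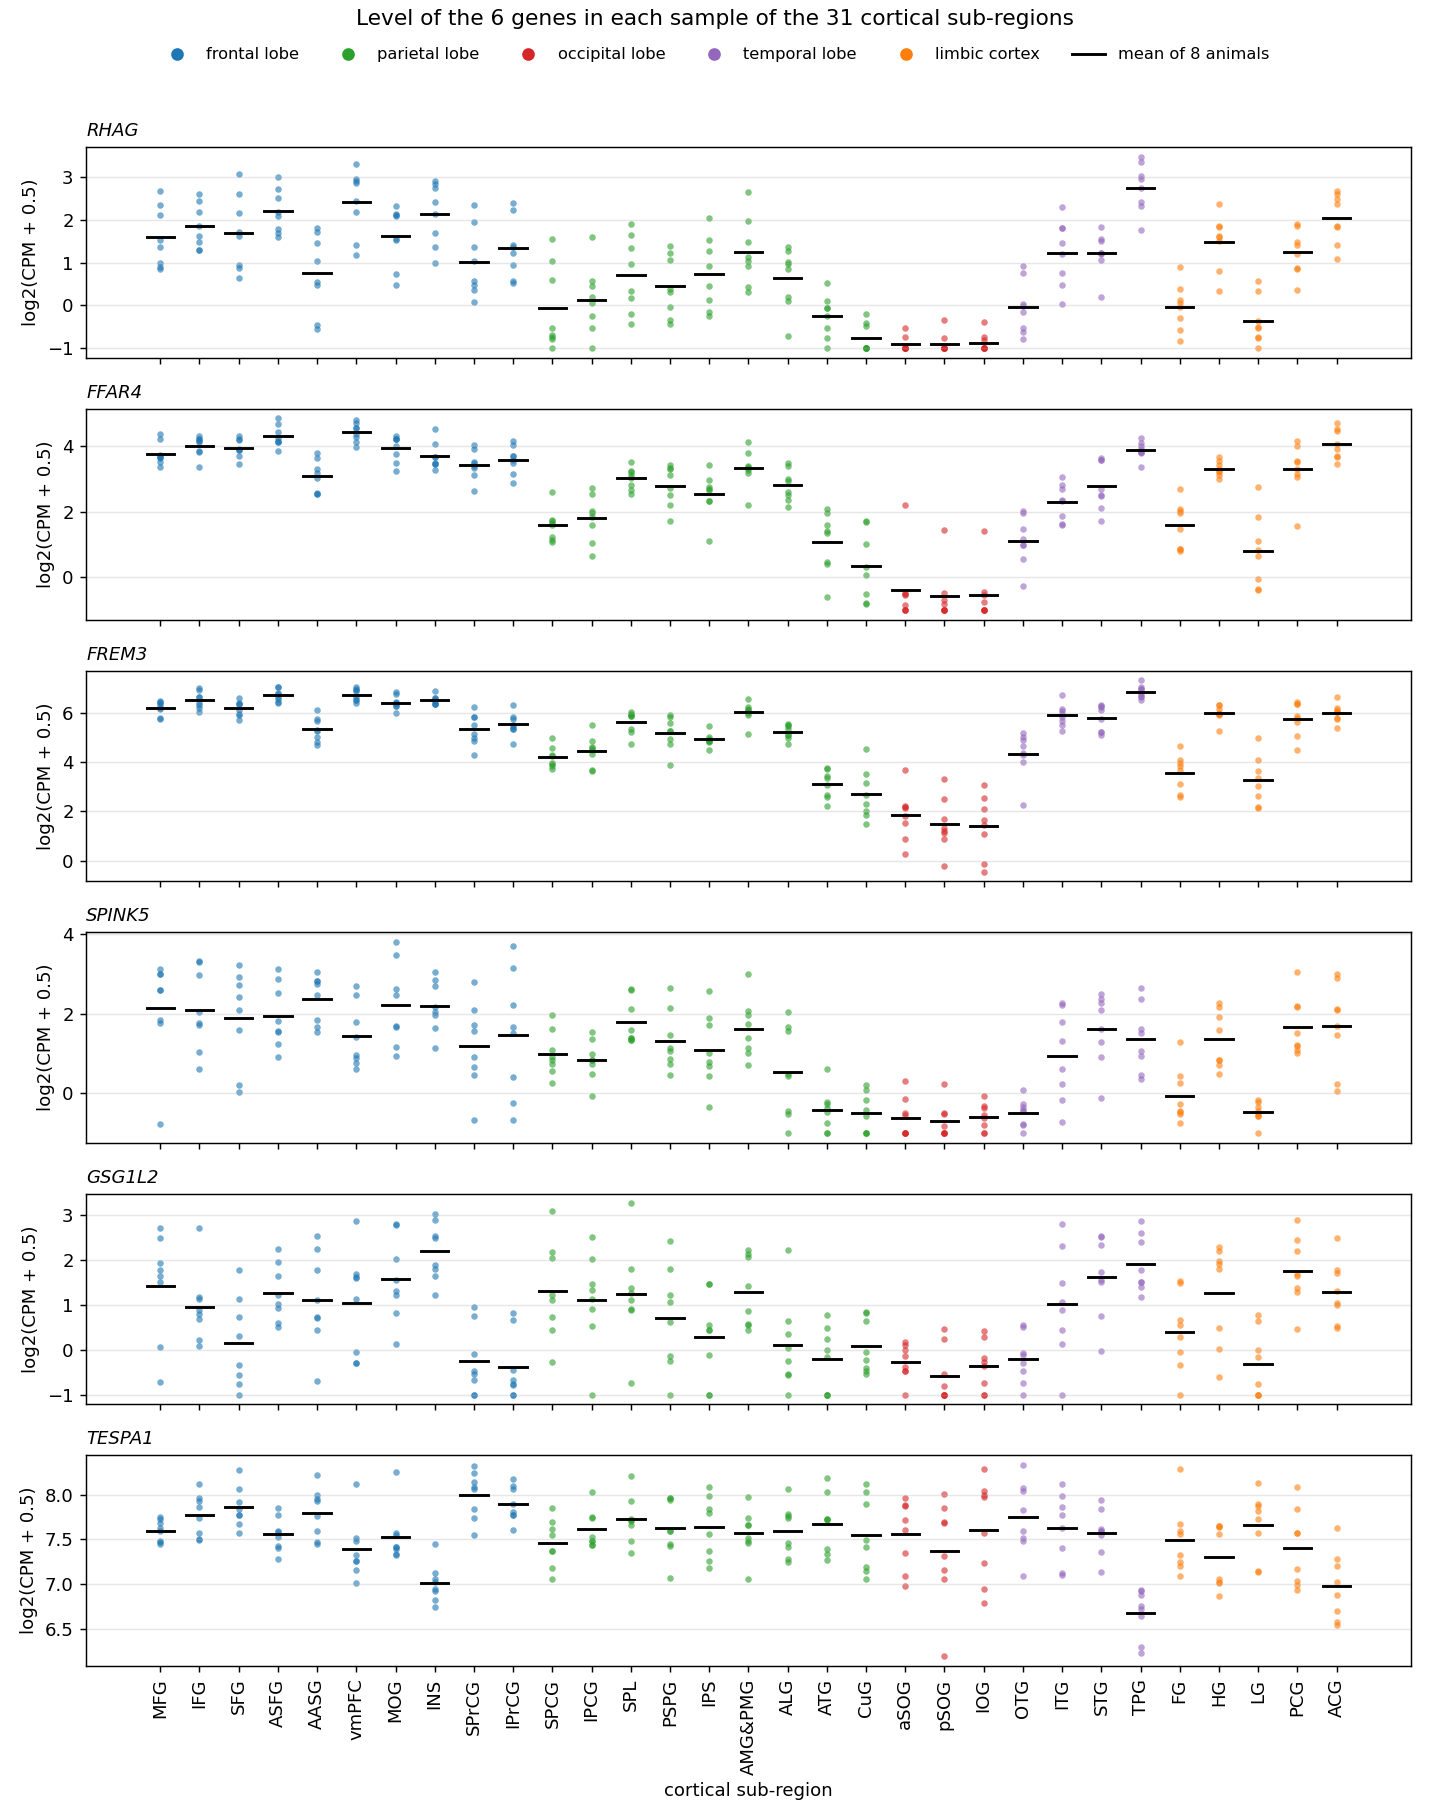
Level of each gene in the 31 cortical sub-regions on a log2(CPM + 0.5) axis, 1 point per animal coloured by lobe and a bar at the mean of 8 animals. Apart from TESPA1, the 3 occipital sub-regions hold the lowest mean CPM of every gene. RHAG stood at 0.0370 CPM in aSOG and 6.66 CPM in TPG. For GSG1L2, IPrCG lay above aSOG by 0.0121 CPM on average, but in only 2 of 8 animals. The bars are means on the log2 axis, where the order can differ.

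Whether the low levels stopped at the border of the lobe was tested in 4 visual or adjoining sub-regions that the study placed in other lobes. These sub-regions stood on the other side of the contrast that chose the genes. Each was compared with the remaining sub-regions of its own lobe, in 1 fit over all cortical samples with animal as a block. The 5 depleted genes were lower in the cuneus gyrus (CuG), the lingual gyrus (LG) and the occipito-temporal gyrus (OTG), and 4 of them were lower in the annectant gyri (ATG). Over all genes, 7.04% were lower in CuG, 5.34% in ATG, 14.3% in LG and 13.4% in OTG.

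In CuG, RHAG was at 0.106 ± 0.152 CPM with 0 counts in 5 of 8 animals, and its log2 difference from the other parietal sub-regions was −3.15 (SE 0.53, FDR 9.75e-07). FFAR4 in CuG ranged from 0.0666 over a median of 0.648 to 2.81 CPM, a log2 difference of −2.22 (SE 0.29). FREM3 there ranged from 2.34 over 5.20 to 23 CPM, a difference of −1.91 (SE 0.23). SPINK5 and GSG1L2 in CuG differed by −2.59 (SE 0.45) and −1.14 (SE 0.37, FDR 0.0233). For FREM3 in CuG, Rhesus 6 stood above the other 7 animals.

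In LG the log2 differences from the other limbic sub-regions were −2.53 for RHAG, −2.41 for FFAR4, −2.03 for FREM3, −3.07 for SPINK5 and −2.45 for GSG1L2. In OTG, against the other temporal sub-regions, they were −2.52, −2.09, −1.76, −3.48 and −2.78 in the same order of RHAG, FFAR4, FREM3, SPINK5 and GSG1L2. TESPA1 was higher in LG by 0.34 (SE 0.08, FDR 0.00061; 12.2% of all genes were higher) and in OTG by 0.46 (SE 0.09, FDR 5.98e-06; 13.8% higher). TESPA1 had log2 differences of −0.06 in CuG and 0.07 in ATG, neither past the threshold.

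Of the 4 sub-regions, ATG gave the smallest fitted differences for RHAG, FFAR4, FREM3 and SPINK5, and CuG for GSG1L2. Differences between the 4 were not tested. In ATG, FFAR4 was lower by 1.23 on the log2 scale (SE 0.26), FREM3 by 1.74 (SE 0.22), SPINK5 by 2.48 (SE 0.44) and GSG1L2 by 1.71 (SE 0.39). RHAG differed by −1.09 (SE 0.41, FDR 0.0708), short of the threshold with edgeR and past it with DESeq2 (−1.07, FDR 0.0344). RHAG levels in ATG ran from 0 over a median of 0.397 to 0.934 CPM, overlapping those in CuG. The fusiform gyrus (FG), not tested, was also low for RHAG (0.542 ± 0.406 CPM), FFAR4 (2.85 ± 1.65), FREM3 (12.9 ± 6.53) and SPINK5 (0.576 ± 0.619). GSG1L2 was an exception, with an FG mean above those in CuG, ATG and several other frontal and parietal sub-regions.

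Within the occipital lobe the gyri were not separated. None of the 18 comparisons of the 6 genes between aSOG, pSOG and IOG passed an FDR of 0.05 in edgeR. Over all genes 1.37% passed between pSOG and aSOG, 0.15% between IOG and aSOG and 0% between IOG and pSOG. At an unadjusted p below 0.05 the genes numbered 2046, 1830 and 442, and DESeq2 called 231, 30 and 1. The SE of these differences reached 1.18 to 1.29 on the log2 scale for RHAG, so that only large differences between gyri could be detected at its depth.

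**Figure D3:**
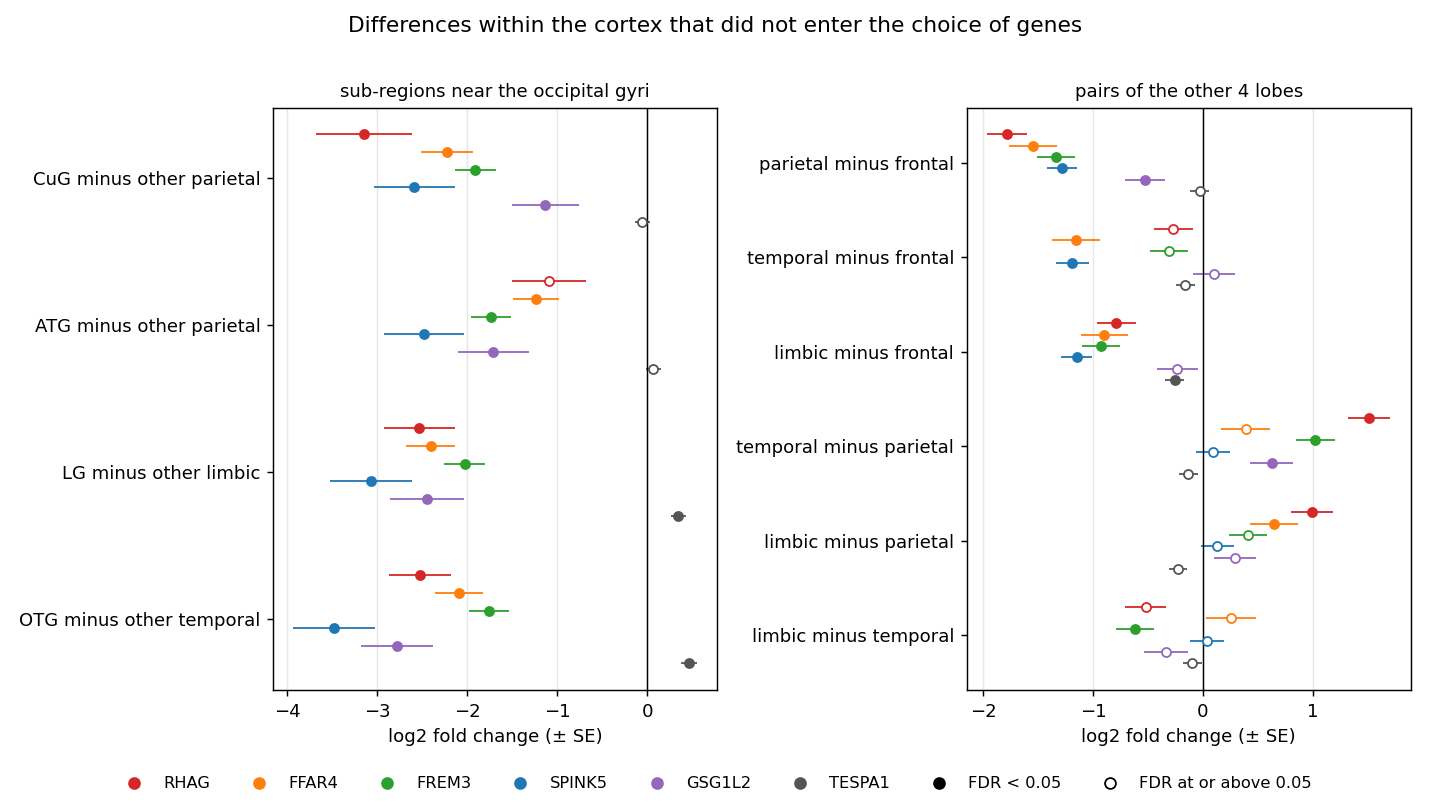
Fitted log2 differences with their SE (bars) for the 6 genes in 4 visual or adjoining sub-regions against the rest of their lobe, and in 6 pairs of lobes without the occipital lobe. Filled points passed an FDR of 0.05: 5 genes lie below 0 in CuG, LG and OTG, while TESPA1 lies near or above 0.

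The other 4 lobes differed too, and these pairs did not enter the choice of genes. Of 36 gene-by-pair tests, 18 passed an FDR of 0.05, where 10.7% to 36.4% of all genes passed in a pair, in either direction. The parietal lobe was below the frontal lobe for 5 of the 6 genes (19.6% of all genes were lower): RHAG by −1.78 (SE 0.18), FFAR4 by −1.54 (SE 0.22), FREM3 by −1.33 (SE 0.17), SPINK5 by −1.28 (SE 0.14) and GSG1L2 by −0.52 (SE 0.18). TESPA1 differed by −0.03 (SE 0.08). In CPM, RHAG went from 3.20 ± 1.28 in the frontal lobe through 2.82 ± 1.05 in the temporal and 1.86 ± 0.374 in the limbic lobe to 1.02 ± 0.693 in the parietal lobe. FREM3 followed the same order, at 77.5 ± 11.8, 65.7 ± 10.1, 42.8 ± 9.26 and 31.6 ± 5.61 CPM. The parietal lobe here included the low CuG and ATG, and the limbic and temporal lobes the low LG, FG and OTG.

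SPINK5 was highest in the frontal lobe, at 4.22 ± 2.45 CPM against 1.94 ± 1.09 in the temporal, 1.96 ± 1.12 in the limbic and 1.73 ± 0.965 in the parietal lobe. FFAR4 showed 14.5 ± 2.83 CPM in the frontal lobe, 8.31 ± 2.67 in the limbic, 7.07 ± 1.89 in the temporal and 5.17 ± 1.51 in the parietal lobe. Both were lower in the temporal than in the frontal lobe (SPINK5 −1.19, FFAR4 −1.15; 6.15% of all genes were lower). The limbic lobe was below the frontal lobe for SPINK5 (−1.15), FREM3 (−0.92), FFAR4 (−0.90), RHAG (−0.79) and TESPA1 (−0.26), against 8.57% of all genes. The FFAR4 call was lost with DESeq2 (FDR 0.0989).

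Against the parietal lobe, the temporal lobe was higher for RHAG (1.52, SE 0.19), FREM3 (1.03, SE 0.17) and GSG1L2 (0.63, SE 0.20), where 12.4% of all genes were higher. The limbic lobe was higher than the parietal for RHAG (1.00) and FFAR4 (0.65), where 8.19% of genes were higher, and FREM3 was lower in the limbic than in the temporal lobe (−0.62; 6.67% lower). With DESeq2 the FFAR4 call of the limbic against the parietal lobe was lost (FDR 0.290), as was the FREM3 call of the limbic against the temporal lobe (FDR 0.0749). GSG1L2 had overlapping levels in all 4 lobes, from 1.58 ± 1.26 CPM in the parietal to 2.31 ± 1.19 CPM in the temporal lobe.

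Outside these lobes the 6 genes parted ways: RHAG was highest in the striatum, FFAR4 in the pituitary, and TESPA1, FREM3, SPINK5 and GSG1L2 were below the other cortex in every region group tested. Each of 7 region groups was compared with the 28 non-occipital cortical sub-regions. A gene was called at an FDR below 0.05 with a log2 difference beyond 1, and 36 of 42 tests passed. Of all genes, 8.5% (PA, the entorhinal and perirhinal cortex) to 44.9% (PIT, the pituitary) were called in either direction. The same cortical samples served in the contrast that chose the genes as high there, so lower values outside the cortex partly share that choice. SPINK5 and GSG1L2 had few or 0 counts in these groups and passed the filter on low counts through samples outside them. Their lower calls were therefore nearly fixed in advance. So were those of other genes with few counts in the thalamus or cerebellum, listed below.

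RHAG in the striatum (STR, the nucleus accumbens, caudate nucleus and putamen) stood at 12.8 ± 5.00 CPM, with lowest, median and highest levels of 7.12, 11.2 and 20.5 CPM, all above the 3.40 CPM of the highest animal in the other cortex. The log2 difference was 2.46 (SE 0.30, FDR 6.7e-12), where 8.66% of all genes were higher. RHAG was also present in the cerebellum (CB) at 2.30 ± 1.26 CPM, the pituitary (PIT) at 1.66 ± 1.38, the amygdala (AMY) at 1.21 ± 0.801 and the entorhinal and perirhinal cortex (PA) at 1.19 ± 0.709 CPM, none of which passed the call (log2 differences −0.05, −0.49, −0.90 and −0.90).

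RHAG is best known from red blood cells, so red cell markers are given beside it; 8 of 10 were found. Their summed level was 6.89 CPM in the other cortex (5.05 to 10.4 over animals), 6.46 in the occipital lobe (4.57 to 12.1) and 9.19 in STR (5.93 to 13.9). The haemoglobin gene HBA was at 5.37 CPM in the other cortex, 4.67 in the occipital lobe and 7.91 in STR. SLC4A1 was at 0 in the occipital lobe and AHSP at 0 in STR. The ranges of the red cell sums overlapped between these regions, and the mean sum was highest in STR, as was RHAG. The part of red cells in the RHAG levels was not tested.

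FFAR4 in PIT reached 57.2 ± 18.1 CPM, with lowest, median and highest levels of 31.5, 54.1 and 91.6 CPM, above every animal's level in the other cortex. Its log2 difference was 2.67 (SE 0.29, FDR 1.21e-14), where 21.5% of all genes were higher. Anterior pituitary markers (6 of 9 found) summed to 145592 CPM in PIT (66503 to 346368) and 17.7 CPM in the other cortex, which checks the tissue label. In PA and AMY, FFAR4 lay at cortical levels, with 11.2 ± 3.05 and 9.18 ± 4.42 CPM (log2 differences 0.26, SE 0.28, and −0.08, SE 0.29). It was lower in the hippocampus (HIP) at 3.51 ± 1.73 CPM (−1.47) and in STR at 2.22 ± 0.422 CPM (−2.10). The thalamus (THA) held 1 FFAR4 count and CB 2 counts over all animals.

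The highest TESPA1 level outside the lobes was in the striatum. STR held 64.2 ± 19.9 CPM (36.4, 66.2 and 95), a log2 difference of −1.6 (SE 0.44). This mean covers nuclei that differed widely, and the putamen alone overlapped the other cortex, as given below. PA, cortical tissue next to the hippocampus, held 9.56 ± 7.13 CPM (−4.36, SE 0.51), AMY 1.16 ± 0.713 CPM (−7.46, SE 0.64) and HIP 0.499 ± 0.336 CPM (−8.73, SE 0.65). Every animal's level in PA and AMY lay below the lowest animal of the other cortex, at 151 CPM. In HTHA the mean of 12.4 CPM rested on Rhesus 6, and the other 7 animals averaged 0.352 ± 0.188 CPM. T-cell markers (6 of 8 found) summed to 5.42 CPM in the other cortex (3.93 to 7.12), 4.6 in the occipital lobe (2.79 to 5.55), 11.2 in PA and 16 in STR (8.56 to 23.5).

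FREM3 had its highest level outside the lobes in AMY, at 23.4 ± 13.7 CPM with 9.58, 18.4 and 46.8 CPM as lowest, median and highest (log2 difference −1.33, SE 0.40). HTHA held 10.2 ± 5.75 CPM, or 8.42 ± 2.88 without Rhesus 6, PA 8.04 ± 6.07 (−2.77), THA 5.17 ± 4.91 (−3.48) and PIT 4.28 ± 3.21 CPM (−3.77). It was close to the floor in HIP at 0.162 ± 0.102 CPM (−8.39), and CB held 3 counts in all. The amygdala levels spread widely but stayed above those of HIP in every animal.

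SPINK5 and GSG1L2 were at or near 0 counts in most region groups. SPINK5 had 0 counts over all animals in PA, THA, MO (medulla oblongata), PON (pons), CB, SN (substantia nigra) and PIT, which makes its pooled level in the other cortex at least 71.9-fold (PON) to 172-fold (CB) higher, with 3 counts over the group as the floor. GSG1L2 had 0 counts in OB (olfactory bulb), PA, PON, CB, VTA (ventral tegmental area), SN and PIT, at least 54.4-fold (PON) to 131-fold (CB) below the other cortex. In PA the bounds were at least 81.0-fold for SPINK5 and 61.3-fold for GSG1L2. AMY kept 0.274 ± 0.208 CPM of GSG1L2 (−2.89; FDR 0.163 with DESeq2) and 0.0722 ± 0.0659 CPM of SPINK5 (−5.18).

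In counts of genes lower than in the other cortex, 4 of the 6 were called in PA (3.2% of all genes), 4 in AMY (4.33%), 6 in HIP (6.36%), 5 in STR (8.24%), 6 in THA (10.1%), 5 in CB (15.4%) and 4 in PIT (23.4%). SPINK5 and GSG1L2, whose calls were nearly fixed in advance, are among those called in each group. Calls of other genes with few counts over all animals were nearly fixed in the same way. In THA these were RHAG (2 counts), FFAR4 (1) and TESPA1 (13), and in CB FFAR4 (2), FREM3 (3) and TESPA1 (20). The counts for THA and CB are therefore no independent result.

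**Figure D4:**
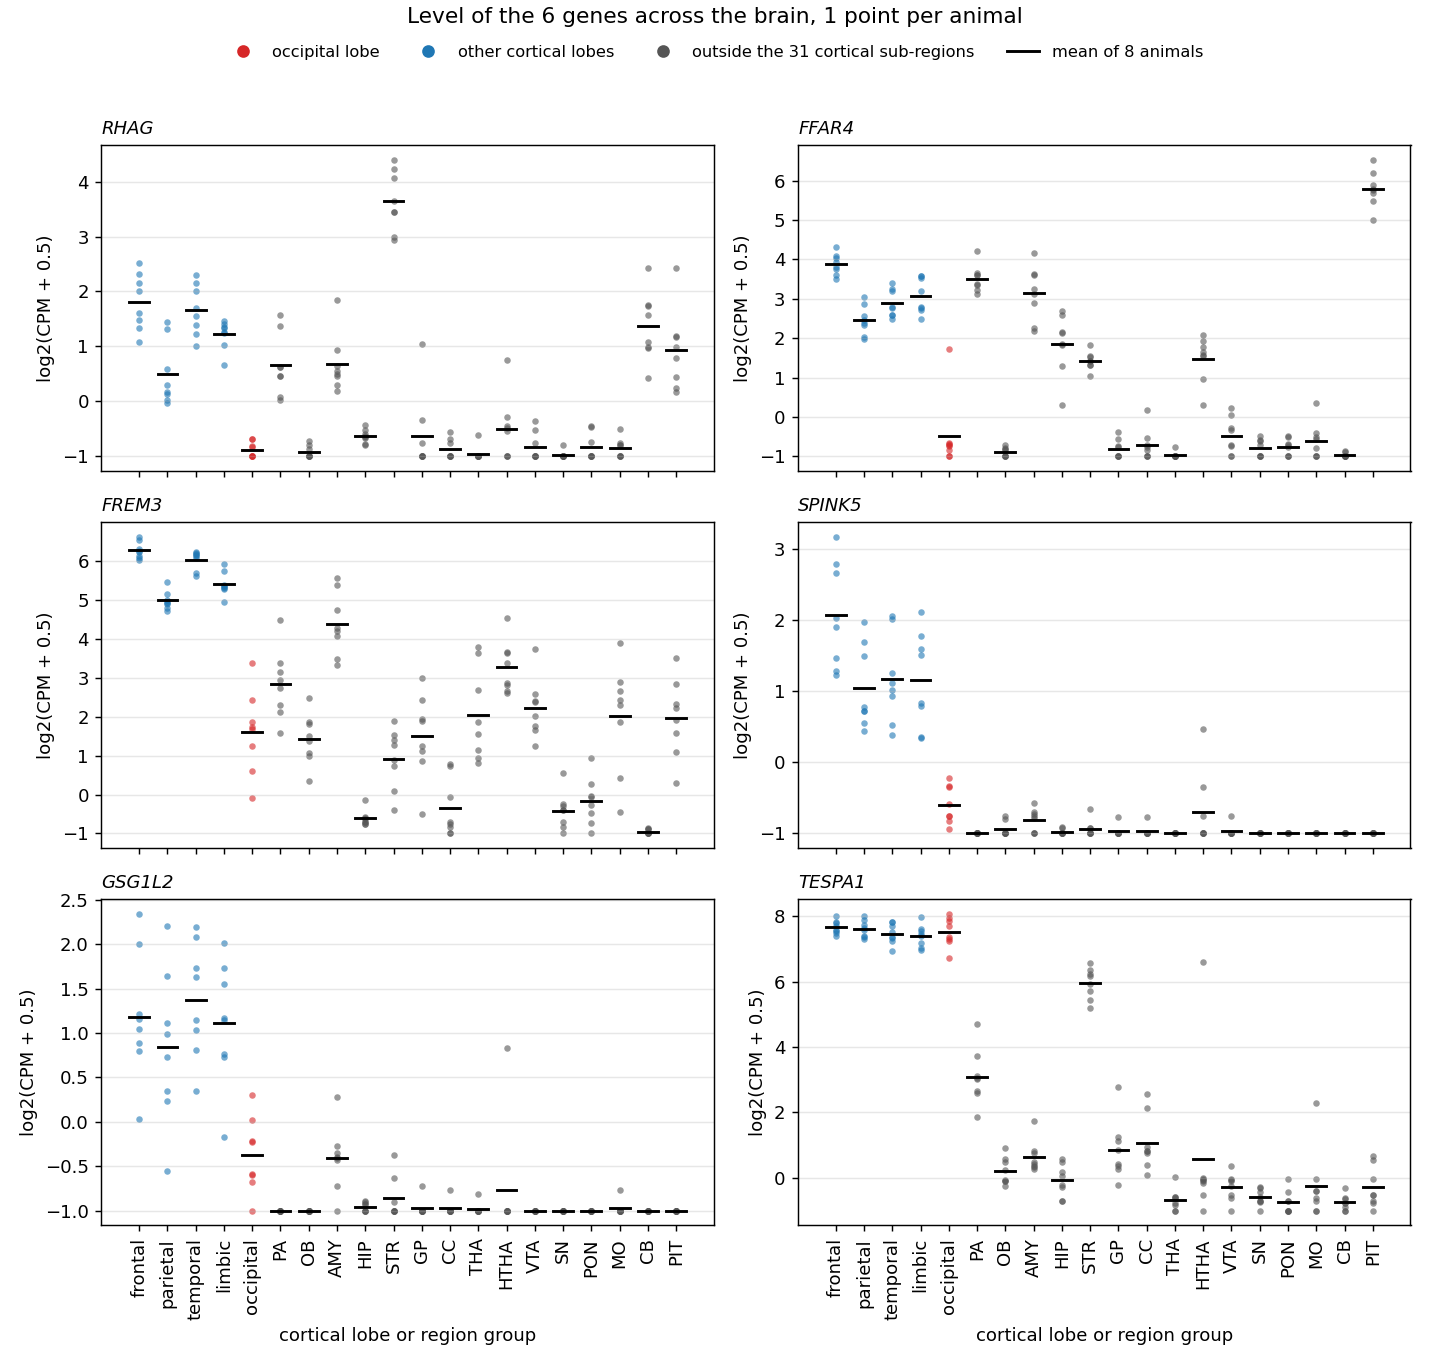
Level of each gene in the 5 lobes and the 15 region groups outside them on a log2(CPM + 0.5) axis, 1 point per animal (8 per column). RHAG peaks in STR at 12.8 CPM and FFAR4 in PIT at 57.2 CPM; in HTHA, Rhesus 6 stands alone at 96.6 CPM of TESPA1.

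Within the striatum, TESPA1 and FFAR4 ran in opposite directions from the nucleus accumbens (ACb) over the caudate nucleus (CN) to the putamen (PUT). TESPA1 was at 3.01 ± 2.5 CPM in ACb (0.615, 2.09 and 7.87), 32.7 ± 24.2 in CN (5.73, 33.5 and 75.5) and 157 ± 36.6 in PUT (99.4, 162 and 208). The PUT levels thus lay above all levels in the other nuclei. They overlapped the levels of the other cortex (151 to 235 CPM), a comparison that was not tested. Its log2 differences were 3.25 (SE 0.37) for CN over ACb, 5.84 (SE 0.38) for PUT over ACb and 2.59 (SE 0.31) for PUT over CN, all called, where 3.96%, 8.75% and 4.82% of all genes were called in either direction.

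FFAR4 was at 4.15 ± 0.890 CPM in ACb (2.79, 4.22 and 5.45), 1.82 ± 0.502 in CN (1.15, 1.71 and 2.58) and 0.687 ± 0.479 in PUT (0.176, 0.496 and 1.61). Its differences for the same pairs were −1.19, −2.65 and −1.45, all called. ACb and CN did not overlap, CN and PUT did. RHAG was present in all 3 nuclei, at 13 ± 5.75 CPM in ACb, 15.0 ± 6.47 in CN and 10.4 ± 4.77 in PUT, and none of its differences passed (0.19, −0.32 and −0.51, the last with an FDR of 0.0578). FREM3, SPINK5 and GSG1L2 did not pass the filter on low counts here.

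In the hippocampus only FFAR4 passed the filter. It was at 4.67 ± 4.07 CPM in the dentate gyrus (DG), 3.92 ± 1.55 in CA1 and 1.94 ± 1.12 in CA3. DG was above CA3 by 1.18 (SE 0.33, FDR 0.0102), where 3.02% of all genes were called. Rhesus 2 ran the other way, with 1.95 CPM in DG and 3.85 in CA3. DG against CA1 gave 0.09 (SE 0.31; 3.53% called) and CA3 against CA1 −1.09 (SE 0.33, FDR 0.309; 0.0203% called).

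Between animals, the genes differed in how tightly their levels were held in the other cortex. The coefficient of variation over 8 animals was 14.6% for FREM3, 16.5% for TESPA1, 22.6% for FFAR4, 37.2% for RHAG, 55.8% for SPINK5 and 61.1% for GSG1L2. The highest animal exceeded the lowest 4.37-fold for SPINK5 and 8.81-fold for GSG1L2. Rhesus 4 had the highest SPINK5 level (5.34 CPM) and the lowest GSG1L2 level (0.424 CPM), so these genes did not share their order of animals.

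None of the 12 tests for age stage and sex in the cortex passed (FDR below 0.1 and a log2 difference beyond 1, 4 against 4 animals). Over all genes edgeR called 0% for age and 0.0876% for sex; 1151 and 471 genes had an unadjusted p below 0.05, and DESeq2 called 81 and 40. RHAG came nearest, lower in mid-aged animals by 0.79 on the log2 scale (SE 0.23, unadjusted p = 0.00733, FDR 0.717), a difference that did not pass.

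The occipital deficit of FFAR4 was smaller in mid-aged than in young animals, with an interaction of 3.24 on the log2 scale (SE 0.66, FDR 0.0416, edgeR; 0.0858% of all genes were called, and 1 of the 6). Without Rhesus 11, the mid-aged animal with nearly all occipital FFAR4 counts, it was 0.64 (FDR 0.972). It was past the threshold without Rhesus 6 (3.96) and without Rhesus 8 (3.61), and short of it without Rhesus 2 (3.32, FDR 0.0662), 3 (3.23, FDR 0.0722), 4 (3.30, FDR 0.151), 7 (3.23, FDR 0.0675) or 10 (2.62, FDR 0.229). For sex, none of the 6 passed in edgeR (0% of all genes; 651 genes at an unadjusted p below 0.05, and 1 call by DESeq2, which was FFAR4). FFAR4 gave a female minus male difference of 3.81 (SE 0.74, FDR 0.237; DESeq2 3.56, FDR 0.0186) and FREM3 one of 1.24 (SE 0.31, FDR 0.821). Without Rhesus 6 the FFAR4 value was 4.51 (FDR 0.000133), and without Rhesus 11 it was 1.505 (FDR 0.853). Rhesus 11 is a mid-aged female.

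The 5 depleted genes followed similar patterns over the cortex, as a description over sub-region means that share animals and libraries. Among them, the 10 pairwise Pearson correlations over the 31 sub-regions had a median of 0.866 (0.644 to 0.969), and over the 28 non-occipital sub-regions, 0.812 (0.502 to 0.951). FFAR4 and FREM3 were the most alike over all 31 (0.969), and FFAR4 and GSG1L2 the least (0.644). The 31 include the occipital gyri whose low values chose the genes, so high values over them partly follow from that choice. Over the 28 others, RHAG and FREM3 were the most alike (0.951), and FFAR4 and GSG1L2 again the least (0.502). Within single animals the values ran from 0.264 to 0.967. Over the 20 sub-regions outside the lobes the median was 0.309 (−0.0733 to 0.724). TESPA1 correlated negatively with each of the 5 over the 31 cortical means (−0.536 to −0.0806), most with GSG1L2. Within single animals the TESPA1 values ran from −0.692 to 0.346. Only the pair with GSG1L2 was negative in every animal (at most −0.220).

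**Figure D5:**
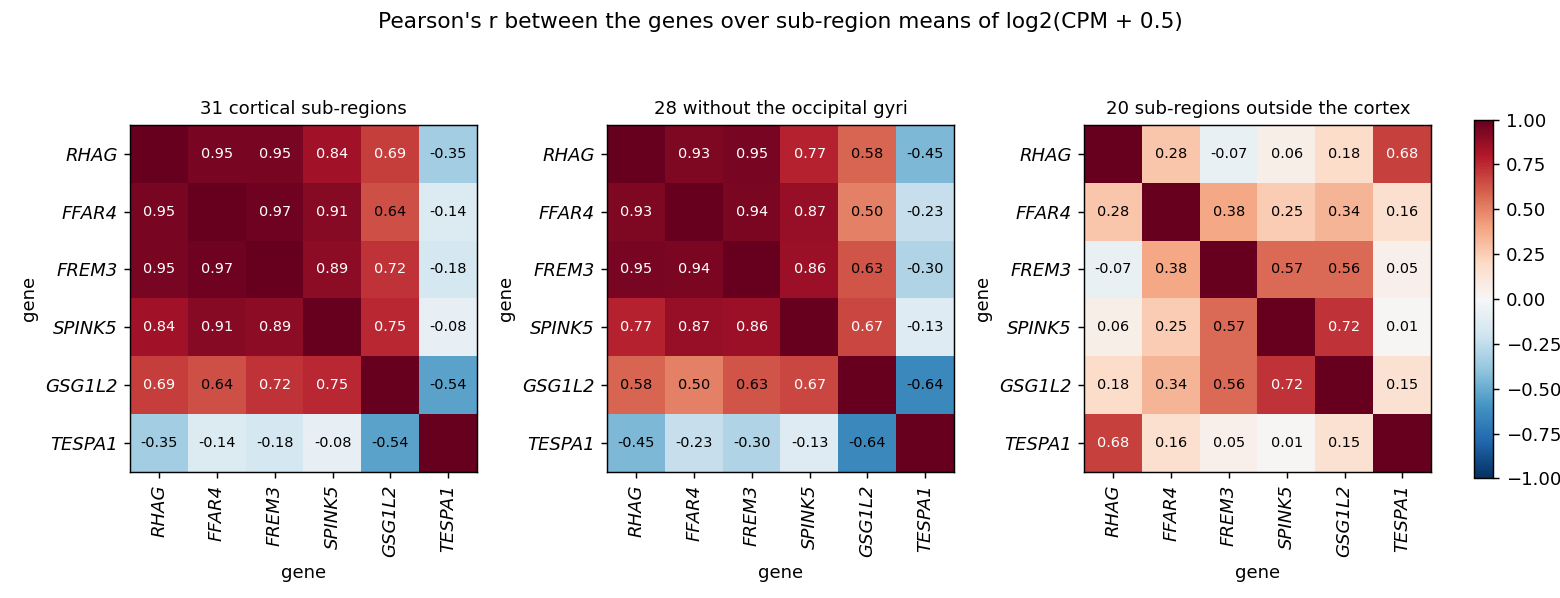
Pearson correlation of each pair of the 6 genes over sub-region means of log2(CPM + 0.5), for the 31 cortical sub-regions, the 28 of them outside the occipital lobe and the 20 sub-regions outside the lobes. Without TESPA1 the cortical pairs lie between 0.644 and 0.969, and those outside the lobes between −0.0733 and 0.724. The 31 include the occipital gyri from which the genes were chosen.

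The genes with the most similar cortical patterns were sought among 11775 genes with a symbol and at least 1 CPM in the cortex, over the same 31 means. They were C4H6orf141 (r = 0.983), RASAL1 (0.981) and RIPOR2 (0.979) for RHAG. For FFAR4 they were PLXNA1 (0.982), LZTS1 (0.980) and RBP4 (0.979), and for FREM3, SIDT1 (0.980), WFS1 (0.980) and SLC6A7 (0.979). SPINK5 was most like GRM2 (0.928), PAMR1 (0.922) and ROBO3 (0.919), and GSG1L2 most like FAM163B (0.885), STK32C (0.885) and HTR3A (0.872). TESPA1 had its own set, RHOBTB1 (0.894), PRKCB (0.861) and FAM78A (0.857). RBP4 is used as a layer 5 marker and WFS1 as a layer 2 and 3 marker.

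Genes related to each of the 6 were counted in the occipital contrast, where they are not members and 26.4% of all genes were lower, 29.9% higher and the median log2 difference was 0.02. Among 6 Rh family and erythroid genes tested, 3 were higher, with the red cell membrane genes ANK1 (0.98) and EPB42 (0.74) among them. Among 9 fatty acid receptors and their signalling genes, 2 were higher and 5 lower (median −0.14); the fatty acid transporter CD36 was lower by 4.25 and the nuclear receptor PPARG higher by 0.66. Of 13 T-cell receptor and inositol trisphosphate signalling genes around TESPA1, 4 were higher and 5 lower (median −0.04), CD247 by 1.13 and CD3E by −1.43.

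The matrix genes around FREM3 split into 2 higher and 4 lower of 8 (median −0.11): NPNT was higher by 0.68 and FREM2 lower by 0.77. The summed level of this list also went against its median, at 188 ± 22.1 CPM in the occipital lobe and 167 ± 9.65 CPM in the other cortex. Among 6 serine protease inhibitors and kallikrein-type proteases around SPINK5, none was higher and 4 were lower (median −0.30); KLK5, a kallikrein that LEKTI inhibits, was lower by 3.00. Of 13 GSG1 family and AMPA receptor auxiliary genes, 1 was higher (CACNG7, 0.15) and 8 were lower (median −0.59), among them GSG1L (−1.09) and SHISA9 (−1.10).

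Markers of cell types and layers moved with the same contrast. Of 10 layer 2 and 3 markers, 8 were lower and 2 higher (median −1.14), and their summed level was 636 ± 51.3 CPM in the occipital lobe (542 to 718) against 1129 ± 95.4 CPM in the other cortex (993 to 1267); GLRA3 (−2.56) and CARTPT (−2.07) were the lowest and CUX1 (1.03) the highest. Layer 5 markers had 8 of 11 lower and 3 higher (median −0.74), from RBP4 (−3.40) to PCP4 (1.6). Layer 4 markers had 2 of 3 lower and 1 higher (RORB, 0.97; median −0.56). Their summed level went the other way from the median, at 64.4 ± 30.6 CPM in the occipital lobe (38.5 to 117) against 36.6 ± 12.9 CPM in the other cortex (20.2 to 58.6), with overlapping ranges. Layer 6 markers had 6 of 11 higher and 3 lower (median 0.29; SYT6 1.83). Excitatory neuron markers had 3 of 8 higher and 4 lower (median −0.14; SLC17A6 1.39, NEUROD6 −1.46), and interneuron markers 1 of 12 higher and 7 lower (median −0.40; PVALB 1.77, CALB2 −1.75).

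All 7 oligodendrocyte markers were higher (median 0.51), with summed levels of 4049 CPM in the occipital lobe (3428 to 5221) and 3012 CPM in the other cortex (2436 to 3353). All 4 microglia markers were lower (median −0.59), as were 4 of 7 astrocyte markers with 1 higher (median −0.17; GFAP −0.87) and 5 of 7 endothelial markers with 1 higher (median −0.19). The remaining lists were short or near the floor: choroid plexus (1 of 3 higher, 2 lower, median −1.21), red cells (1 of 3 higher), T cells (1 of 4 higher, 3 lower, −0.62), keratinized epithelium (1 of 4 higher, 2 lower, −1.29), medium spiny neurons (2 of 7 higher, 3 lower, 0.10) and anterior pituitary (1 of 5 higher, 1 lower, −1.47). Keratinized epithelium markers summed to 13.8 CPM in the occipital lobe (12.1 to 15.3) and 24.6 CPM in the other cortex (16.8 to 41.5), with DSG1 at 0 in the occipital lobe. The part of these lists in the levels of the 6 genes was not tested.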

How the data were processed

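The deposited table held raw whole-number read counts per gene. By the study's methods and the submitters' processing notes, the authors trimmed the samples of poor read quality with Trim Galore 0.4.4, aligned reads with HISAT2 2.0.5 to the Mmul_8.0.1 assembly and counted them with HTSeq 0.6.1 on Ensembl release 91. RNA had been depleted of ribosomal RNA and made into directional libraries; the strand setting of the count is not given in the sources used here, so genes that overlap or have near-identical copies are uncertain. The depth of 7784678 to 31083490 counts per sample limits the low genes, and intervals and floors (3 counts over a group) cover counting error only, as the libraries carried no molecular identifiers.

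Counts were tested with edgeR 4.0.16 (R 4.3.3; quasi-likelihood F test, TMM, filterByExpr, Benjamini-Hochberg over all genes tested, reported as FDR), with animal as a block. Counts were summed within each animal for lobes, region groups, and age and sex; sub-regions were fitted sample by sample. Calls needed an FDR below 0.05; region groups and striatal or hippocampal pairs also a log2 difference beyond 1, and age and sex an FDR below 0.1 with a log2 difference beyond 1. A total of 156 tests of the 6 genes were made in 30 comparisons and 83 were called. Over all genes, 0% to 44.9% were called in a comparison, in either direction. The calls for region groups partly share the choice of genes, so the total is no result about the 6 genes. All 6 genes passed the filter in the cortical and region group fits, 3 in the striatum and 1 in the hippocampus. Levels are means of CPM over sub-regions within an animal, then mean ± SD over 8 animals, which are separate animals by the labels. Plots and correlations used log2(CPM + 0.5). The fits were tested on simulated data. DESeq2 1.42.0, other size factors, the study's detection rule (a count above 1 in at least 3 samples), no block and leaving out 1 animal were alternatives.

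The 6 genes, the 6 family lists and the 16 cell type lists were chosen with earlier results of these data known. The genes named beside the 6 were the 3 most alike for each and, from each list, those with the 2 largest called differences in a direction, given where they bear on the text. Samples of the same animal deviated together: the correlation of deviations between lobes had a median of 0.792 (−0.0539 to 0.921 over 80 animal-by-lobe pairs), between striatal nuclei 0.462 and between hippocampal fields 0.517, and the pairing comes from the animal named in the labels. The 8 midbrain RNA samples, the 33 ATAC-seq samples and the assembled transcripts were not analysed here, and the result of 1 gene of the red cell lists is not reported here.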

Additional observations from a re-analysis of the deposited data

Results flagged for a closer look

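A sample of 8 lay apart from the rest of its group (by Dixon's ratio of gap to range) in 39 of 262 groups with at least 30 pooled counts (14.9%). The cut-off gives about 1 in 20 by chance for independent groups of normally distributed values. Here it was applied to CPM without a log, and lobes were counted beside their own sub-regions, so the shares are not comparable. The sample apart was high in 38 of the 39 groups and low in 1. Rhesus 11 accounted for 9, Rhesus 2 and Rhesus 4 for 6 each.

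Rhesus 11 was high for FFAR4 in the occipital lobe (2.80 CPM, next highest animal 0.129), aSOG (4.06), LG (6.23), PA (17.9) and the superior postcentral gyrus SPCG (5.61), and for FREM3 in the occipital lobe (9.96), aSOG (12.4), LG (31.4) and HIP (0.404). The FFAR4 difference between mid-aged and young animals in the occipital contrast (3.24 on the log2 scale) was flagged because the difference itself passed its test; it was 0.64 without that animal.

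Other FREM3 samples apart were Rhesus 2 in PA (21.8 CPM), CN (4.20) and PUT (2.09), Rhesus 6 in HTHA (22.8) and CuG (23), Rhesus 8 in MO (14.5) and, low, in the hippocampal gyrus HG (38.8), Rhesus 7 in VTA (12.7), and Rhesus 10 in the intraparietal sulcus region IPS (44.5) and INS (118).

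TESPA1 was high in HTHA of Rhesus 6 (96.6 CPM, next 0.506), in PA (25.8), the globus pallidus GP (6.34), vmPFC (278) and the medial orbital gyrus (304) of Rhesus 3, in MO (4.43), the inferior postcentral gyrus IPCG (261) and FG (313) of Rhesus 4, and in AMY of Rhesus 8 (2.86).

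RHAG was high in AMY (3.11 CPM) and the cerebellar sub-region CBC (6.04) of Rhesus 7, PIT of Rhesus 6 (4.88) and IPCG of Rhesus 4 (2.52). SPINK5 was high in the parietal AMG&PMG (7.53) and the posterior cingulate PCG (7.80) of Rhesus 4 and FG of Rhesus 7 (1.96). GSG1L2 was high in the parietal ALG (4.17), the inferior frontal gyrus (6.06) and vmPFC (6.74) of Rhesus 2 and the superior parietal lobule (9.09) of Rhesus 10.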

How the results depend on the processing

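Without the replicate block that pairs samples by animal, the occipital contrast called 6292 genes in place of 9837, the lobe pairs 6 of 36 tests of the 6 genes in place of 18, the hippocampal pairs 0 in place of 1 and the interactions 0 in place of 1; RHAG in CB turned from −0.05 to 0.014, and 16 calls of the 6 genes were lost and 0 gained. With DESeq2 the interactions gave 2 calls, leaving out 1 animal gave 0 to 2, and FFAR4 in the occipital lobe went from −4.49 to −5.43. DESeq2 lost 4 calls of the 6 genes and gained 2, and the study's detection rule gained 1, RHAG in PA (−1.0, FDR 0.0179). The other 66 settings of these summary counts and values stayed near the main result and were counted as the same. Single calls could still cross the threshold there, as in the lobe pairs with DESeq2 (15 of 36 tests called in place of 18). For single genes, 490 settings kept their direction and side of the threshold. The cause of the changes was not tested.

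Counts over all genes that moved by over 1.5 times were, without the block, 72 to 1902 for lobe pairs (1876 to 6362 with it), 993 for CuG (2334), 396 for ATG (1486), 2495 for LG (4234), 2468 for OTG (4349), 50 for pSOG over aSOG (219), 2 for IOG over aSOG (24), 1 for CA3 over CA1 (3) and 0 for the age interaction (15). DESeq2 called 81 for age (0), 40 for sex (18), 127 and 1 for the age and sex interactions (15 and 0) and 19 for CA3 over CA1 (3). The detection rule called 3134 for HIP (2062), 9 for the age interaction and 10 for CA3 over CA1. Leaving out Rhesus 6 gave 770 and 6 for the age and sex interactions, leaving out another animal 3 to 12 for the age interaction, and leaving out Rhesus 4 gave 2 for age. Depth limits SPINK5, GSG1L2 and RHAG in the occipital lobe and outside the lobes, where a few counts decide a level.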

Other observations

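With the study's detection rule in place of the stricter filter, FREM3 could be tested in the striatum, where it was lower in CN and in PUT than in ACb (log2 differences −2.23, FDR 0.00974, and −2.28, FDR 0.00599, edgeR). Its level was 3.29 ± 3.14 CPM in ACb against 0.839 ± 1.38 in CN and 0.716 ± 0.593 in PUT, and PUT against CN gave −0.043 (SE 0.72, FDR 1.0), with no call. SPINK5 and GSG1L2 gave no call there.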
